A study of Mus musculus with 6 samples.

Results

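Ribosome biogenesis genes are a well-known group of MYC targets, and 36 of them were followed here in mouse embryonic stem cells over 1 h of cytokine treatment. A gene was taken where the array's annotation names it, by exact symbol and alone, for a feature of the deposited table. This gave 39 features of 35 genes among 34760 features in all. Fbl, Wdr12, Ddx18 and Mrto4 had 2 features each. Ppan, an assembly factor of the large subunit, had no feature of its own and was not analysed here, and 4 features that carry a member's symbol beside other symbols were left out. The values on each array are log2 intensities, which compare 1 feature between arrays and not the levels of different genes.

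The cells were embryonic stem cells of strain C57Bl/6 that stably carried GRgp-Y118F, a chimeric receptor, and every group shares this line. Receptors of this kind join the ligand-binding part of the GCSF receptor to the signalling part of gp130, so that GCSF can activate STAT3, and the Y118F change is known to take away the site from which gp130 signals through SHP2 to ERK. There were 2 arrays labelled LIF/PD, that is LIF with the MEK inhibitor PD0325901 at 1 µM for 1 h, 2 arrays labelled GCSF for 1 h, and 2 arrays of untreated control cells. Per the design text, serum was withdrawn for 6 h before treatment, and the sources used here leave it unstated for the controls. Nothing in the labels tells whether the paired arrays of a group are separate cultures, so a p-value here reflects array-to-array spread that may be purely technical. The question put to these genes was whether they follow the change of Myc within 1 h.

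Ribosomal RNA is transcribed in the nucleolus by RNA polymerase I, modified under the guidance of small nucleolar RNAs (snoRNAs), and cut and folded by a long series of assembly factors into the small and the large ribosomal subunit. MYC, together with its partner MAX, binds the E-box sequence CACGTG near the start of many of these genes and is known to raise their transcription, and MYC is itself a STAT3 target in mouse embryonic stem cells.

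The E-boxes near the start sites are shown because they are the sequence through which MYC acts on such genes. RefSeq start-site windows of build GRCm38.p6, which run from 250 bases before a start to 50 after it, were at hand for 30 of the 36 genes. The palindrome CACGTG, searched as these letters, stood in 6 of them (20%), against 8.09% of all 27025 genes with such windows, and in 6 of 37 windows (16.2%) against 7.15% of all windows. In Nop2 and Rrn3 it lay before the start, and in Ltv1, Pes1, Utp20 and Wdr43 within the bases after it. The stretches are given 5′ to 3′ on the gene's strand with the E-box in capitals. No match says only that these letters are not in the window. None of the 6 genes passed the test in any of the comparisons below (limma).
Rrn3, upstream, chr16:13780459-13780514, plus strand: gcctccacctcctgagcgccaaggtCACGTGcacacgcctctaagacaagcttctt
Rrn3, nearer the start, chr16:13780626-13780681, plus strand: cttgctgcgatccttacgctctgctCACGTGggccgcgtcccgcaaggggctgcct
Nop2, chr6:125131798-125131853, plus strand: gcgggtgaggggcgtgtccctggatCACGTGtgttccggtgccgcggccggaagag
Pes1, chr11:3963971-3963988, plus strand: gcagggCACGTGcgggag
Wdr43, chr17:71616226-71616243, plus strand: ggcgaaCACGTGgctgcc
Ltv1, chr10:13193098-13193115, minus strand: tggaccCACGTGtggagc
Utp20, chr10:88826766-88826783, minus strand: taactaCACGTGaggaaa

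Transcripts of ERK feedback genes go against the labels of both treated groups. The ERK phosphatase gene Dusp6 lay at 10.51 and 10.54 log2 in the arrays labelled LIF/PD, at 8.93 and 8.94 in those labelled GCSF, and at 10.47 and 10.52 in the controls, and another feedback gene, Spry4, and the ERK target Egr1 were likewise lowest in the GCSF arrays. These low values stand under the label without the MEK inhibitor. Socs3, a STAT3 target, rose in both treated groups on its brighter feature, by 2.62 ± 0.07 log2 in LIF/PD arrays and 3.13 ± 0.07 in GCSF arrays. Klf4, another STAT3 target, was 0.30 ± 0.06 above control in LIF/PD arrays without passing and rose by 0.92 ± 0.06 in GCSF arrays. Csf3r, the gene for the GCSF receptor, was too dim to be tested. The samples stay in their labelled groups here, and a direction refers to the arrays that carry a label. Each comparison was also made without the arrays of the remaining group, where Myc passed as before, and the call of Rrs1 described below ended (adjusted p = 0.104). Pearson correlations over all tested features were 0.997 to 0.998 within groups and 0.995 to 0.998 between groups. All 10 embryonic stem cell markers stood above the filter on dim features, but so did 8 of 10 markers of feeder fibroblasts, 7 of 10 of primitive endoderm and 7 of 9 matched ones of mesoderm and neural cells. The filter lies at the 40th percentile and was passed by 16912 of 28187 features, so these counts alone do not show such cells. The mean log2 value over the fibroblast markers was 9.53 and 9.55 in the LIF/PD arrays, 9.55 and 9.59 in the GCSF arrays and 9.55 and 9.60 in the controls. The corresponding means were 7.57 and 7.58, 7.59 and 7.60, and 7.54 and 7.56 for primitive endoderm, 7.41 and 7.42, 7.37 and 7.39, and 7.34 and 7.39 for mesoderm and neural markers, and 11.80 and 11.81, 11.82 and 11.83, and 11.73 and 11.76 for the stem cell markers, with the groups in that same order. The fibroblast markers Lum and Fap, the endoderm markers Sox17, Sox7 and Afp and the markers Mesp1 and Zic1 lay below the filter. In GCSF arrays against control 1 of the 8 tested fibroblast features passed, Col3a1 at 0.29 ± 0.05, with 4 of the 8 above and 4 below control. That call ended after quantile normalization (adjusted p = 0.0579) and with centring (0.0515), and Thy1 lay lowest at -0.10 ± 0.04. Of the 7 tested endoderm features 1 rose, Lama1 (0.43 ± 0.05), with 4 above and 3 below control, and of the 7 mesoderm and neural features 1 rose, Pax6 (0.54 ± 0.07), with 3 above and 4 below, among them Eomes at -0.18 ± 0.06. Of the 10 stem cell markers Fgf4 (0.29 ± 0.03) and Tdgf1 (0.30 ± 0.03) rose, and 7 lay above and 3 below control. Utf1 lay lowest at -0.16 ± 0.03 (adjusted p = 0.0527). With centring 1 stem cell marker was called lower. No marker of these lists passed in LIF/PD arrays against control. As deposited, 8 of the 32 had an unadjusted p under 0.05, all higher, against 4.7% of all features higher. They were 5 of the 10 stem cell, 0 of the 8 fibroblast, 2 of the 7 endoderm and 1 of the 7 mesoderm and neural features. In that order the counts higher were 5, 0, 0 and 1 after quantile normalization and 3, 0, 0 and 1 with centring. With centring 1 mesoderm and neural feature was lower. Of all 16912 features 668 and 435 were higher under these scalings. Between LIF/PD and GCSF arrays Utf1 was higher (0.23 ± 0.03) and Tdgf1 (-0.17 ± 0.03) and Lama1 (-0.34 ± 0.05) were lower, and the call of Tdgf1 ended under both other scalings (adjusted p = 0.0506 and 0.066). Their part in the results was not tested. In such bulk samples fewer cells of a type and less RNA per cell cannot be told apart.

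Myc, the transcription factor gene whose change was to be followed, was at 10.68 and 10.69 log2 in the LIF/PD arrays, 9.80 and 9.84 in the GCSF arrays, and 10.54 and 10.64 in the controls. Both GCSF arrays lay below all others, and the LIF/PD arrays lay just above the controls. Myc fell in the GCSF arrays by 0.77 ± 0.04 log2 (SE, n = 2 arrays per group, limma adjusted p = 9.43e-05), and the 95% interval ran from -0.87 to -0.67. In the LIF/PD arrays it differed from control by 0.09 ± 0.04 (adjusted p = 0.778), with an interval from -0.01 to 0.19. It was 0.86 ± 0.04 higher in LIF/PD than in GCSF arrays (adjusted p = 7.32e-05).

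Mycn, the second MYC family gene of stem cells, moved the other way. It had 10.75 and 10.80 log2 in the LIF/PD arrays, 10.86 and 10.91 in the GCSF arrays, and 10.43 and 10.52 in the controls. Every treated array exceeded both controls. Mycn rose by 0.41 ± 0.04 in the GCSF arrays (adjusted p = 0.0022) and was 0.30 ± 0.04 above control in the LIF/PD arrays without passing (adjusted p = 0.0922). It did pass there when features were averaged per gene (0.00829) or only the brightest feature of a gene was kept (0.00965). The 11 other genes of the MYC and MAX network, which include the partner gene Max (-0.02 ± 0.05 in GCSF arrays) and the antagonists Mxd1, Mxd3, Mxd4, Mxi1 and Mnt, did not pass in any comparison. Of the antagonists Mxd4 lay lowest, at -0.11 ± 0.05 in the LIF/PD arrays and -0.10 ± 0.05 in the GCSF arrays.

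The ribosome biogenesis genes did not fall with Myc in the GCSF arrays. All 39 features passed the filter. Of these 1 rose, that of Rrs1, and 0 fell with limma, against 0.804% of all 16912 tested features called higher and 0.367% called lower (1.17% in either direction). At an unadjusted p under 0.05 there were 3 higher and 1 lower, where 7.04% and 5.07% of all features stood. The median log2 difference over the 35 genes was 0.01, and it was also 0.01 over all 12949 genes. Over the 39 features the 95% intervals had a lowest bound of -0.22, and for 33 features the interval lay within 0.2 log2 of 0 on both sides. Each interval thus lay above the -0.77 of Myc. This sets few features apart, since the 1st percentile of the difference over all tested features was -0.26. The features of genes other than Rrs1 differed from control by -0.09 to 0.23.

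In the LIF/PD arrays, where Myc did not pass, 0 of 39 features passed with limma against 0.065% of all features, of which 0.0591% were higher and 0.00591% lower. There were 2 features with an unadjusted p under 0.05, Rrs1 and 1 of Ddx18, both higher, against 4.7% of all features higher and 1.89% lower. The median over the 35 genes was 0.01, against 0.02 over all genes, and 35 of 39 intervals lay within 0.2 log2 of 0. Between LIF/PD and GCSF arrays, which differed most in Myc, 0 features passed with limma against 0.846% of all features (0.402% higher, 0.443% lower). There 1, Bysl, was higher and 1, Gar1, lower at an unadjusted p under 0.05 against 6.96% and 4.83% of all features. The median over the genes was -0.01 and that over all genes 0.01. The comparisons with control share the 2 control arrays, and the third shares its arrays with both.

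**Figure D1:**
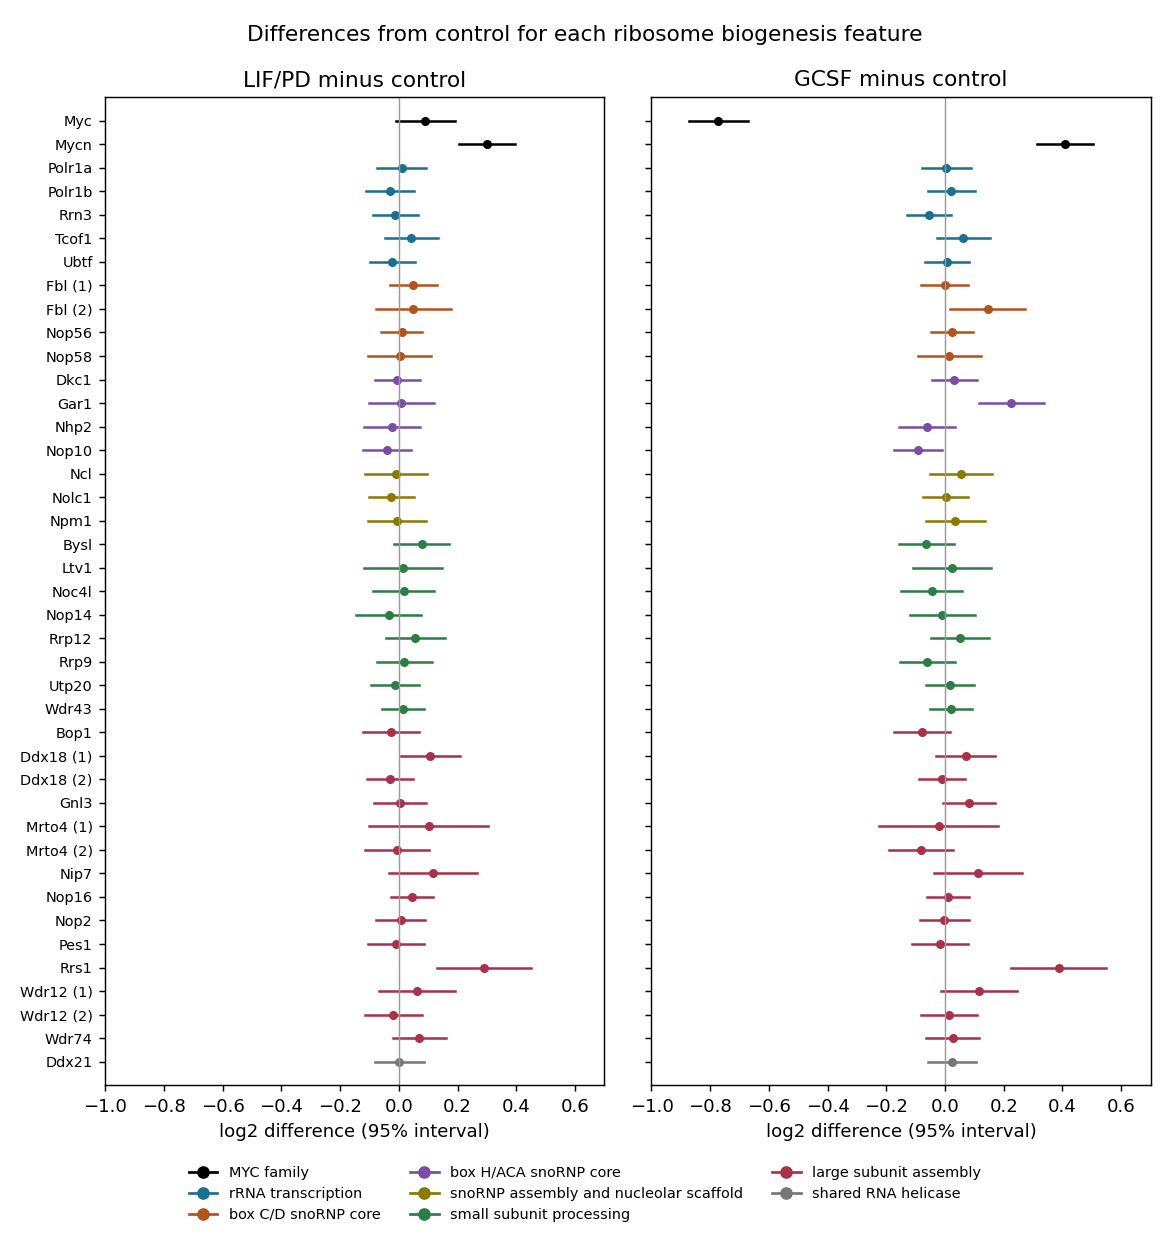
Log2 difference from control with its 95% interval for Myc, Mycn and each of the 39 ribosome biogenesis features, coloured by role, for LIF/PD arrays on the left and GCSF arrays on the right; (1) and (2) mark the features of 1 gene. Myc lies at -0.77 in the GCSF panel, and apart from Rrs1 (0.39) the features there lie between -0.09 and 0.23.

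The order that Myc shows, with both GCSF arrays below the 4 others, was found in 5 of 39 features (12.8%), against 10.9% of all features. They were Rrn3, Bysl, Nop10, Rrp9 and 1 of the features of Mrto4, and none of them passed the test in any comparison. The opposite order, with both GCSF arrays above the 4 others, was found in 7 features (17.9%), against 11.4% of all features, namely Rrs1, Gar1, Gnl3, Utp20, Wdr43, Polr1b and Dkc1. Arrays of GCSF and control did not overlap for 13 features that were higher (background 23.7%) and 8 that were lower (18.2%). Arrays of LIF/PD and control did not overlap for 12 higher (24%) and 3 lower features (14.4%), and those of LIF/PD and GCSF for 8 higher (22.4%) and 10 lower (19.1%). The split of signs depends on the scaling, for these features and for all features. In the GCSF arrays 25 features were above and 14 below control as deposited. The split was 27 and 12 after quantile normalization, and 16 and 23 with each array centred on its median. The share below control was 35.9%, 30.8% and 59% in that order, against 46.3%, 53.3% and 57% of all features. In the LIF/PD arrays the split was 23 and 16, 20 and 19, and 12 and 27 under the same scalings. There the share below control was 41%, 48.7% and 69.2%, against 42.1%, 46.1% and 58.2% of all features.

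**Figure D2:**
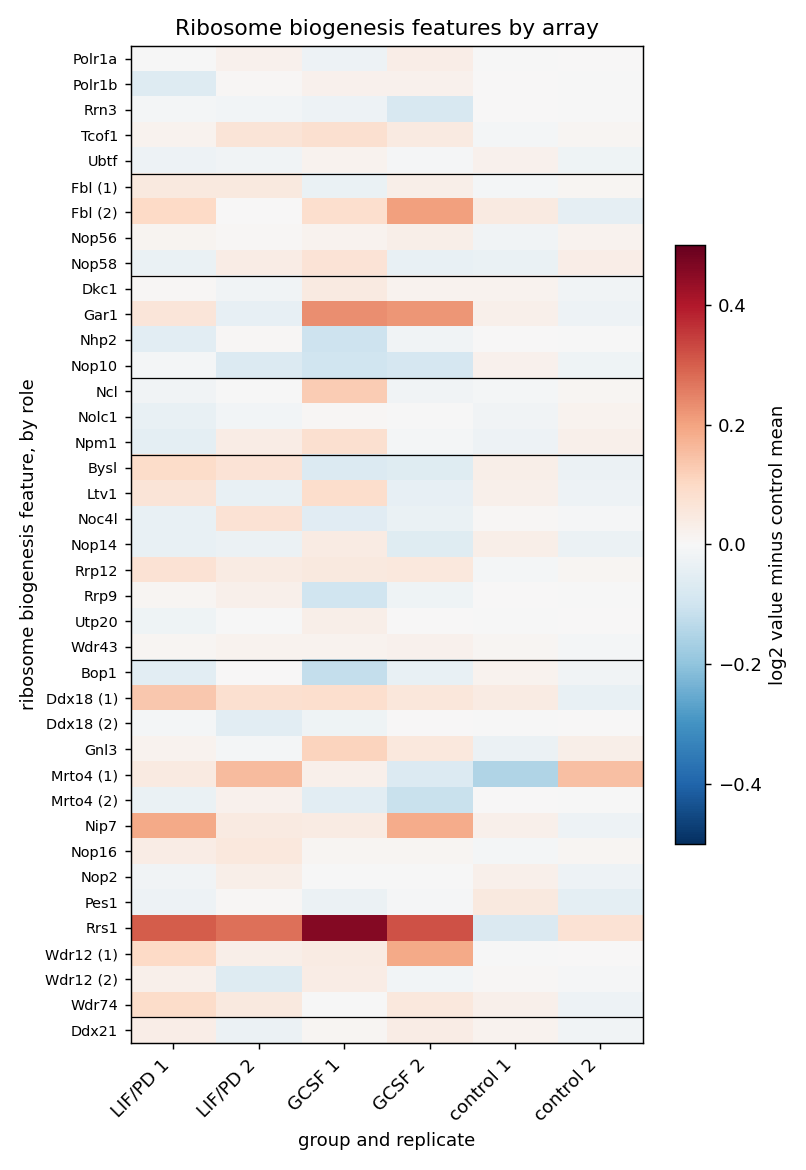
Log2 value minus the control mean for each of the 39 features (rows, grouped by role) on each of the 6 arrays (columns, LIF/PD, GCSF and control). Rrs1 is higher on all 4 treated arrays and Gar1 on both GCSF arrays; most other cells are near 0.

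Among the genes of ribosomal RNA transcription, none of 5 passed in any comparison with limma, and none had an unadjusted p under 0.05. Polr1a and Polr1b encode the large catalytic subunits of RNA polymerase I. Polr1a had 10.77 and 10.79 log2 in LIF/PD arrays, 10.74 and 10.81 in GCSF arrays, and 10.77 and 10.77 in controls, so the groups overlapped. Polr1b differed from control by -0.03 ± 0.04 in LIF/PD arrays and 0.02 ± 0.04 in GCSF arrays. Ubtf, which binds ribosomal DNA and recruits the polymerase, spanned only 0.045 log2 over all 6 arrays. Rrn3 links the polymerase to the promoter and carries a pair of E-boxes, shown above. It had 11.91 and 11.91 log2 in LIF/PD arrays, 11.90 and 11.84 in GCSF arrays and 11.93 and 11.92 in controls. The GCSF arrays were lowest, by 0.05 ± 0.03 below control (adjusted p = 0.576). Tcof1, the treacle gene, lay 0.04 ± 0.04 above control in LIF/PD arrays and 0.06 ± 0.04 in GCSF arrays.

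The core proteins of the box C/D particles, which methylate ribosomal RNA, are the methyltransferase fibrillarin (Fbl) and its scaffold partners Nop56 and Nop58. No feature of these passed. Nop56 spanned 0.048 log2 over the 6 arrays and Nop58 0.105. The features of Fbl did not move alike: 1 had 10.15 and 10.05 log2 in LIF/PD arrays, 10.13 and 10.25 in GCSF arrays and 10.09 and 10.00 in controls, a difference of 0.14 ± 0.06 for GCSF (adjusted p = 0.358). The other lay at -0.00 ± 0.04 (adjusted p = 0.991), and both are annotated to the same RefSeq transcript, as are the paired features of Wdr12, Ddx18 and Mrto4. Whether 1 of each pair measures a near-identical copy of the gene was not tested.

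The box H/ACA particles convert uridines of ribosomal RNA to pseudouridine. Their enzyme is dyskerin (Dkc1), with Gar1, Nhp2 and Nop10 as partners, and the same proteins bind telomerase RNA. Gar1 had 9.60 and 9.49 log2 in LIF/PD arrays, 9.77 and 9.76 in GCSF arrays and 9.56 and 9.51 in controls. Both GCSF arrays were above all others while LIF/PD and control arrays overlapped. The difference between GCSF arrays and control was 0.23 ± 0.05 with an adjusted p of 0.0827, and it passed when features were averaged per gene (adjusted p = 0.0279) or only the brightest was kept (0.0298). Against GCSF arrays Gar1 was at -0.22 ± 0.05 in LIF/PD arrays (adjusted p = 0.111). Its partners did not pass. Nop10 had 11.54 and 11.48 log2 in LIF/PD arrays, 11.45 and 11.46 in GCSF arrays and 11.57 and 11.53 in controls, at -0.09 ± 0.04 for GCSF against control (adjusted p = 0.354). Nhp2 was at -0.06 ± 0.04 and Dkc1 at 0.03 ± 0.03 in the same comparison, with its GCSF arrays highest as well. A difference between Gar1 and its partners was not tested.

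The abundant nucleolar proteins nucleolin (Ncl) and nucleophosmin (Npm1) and the snoRNP chaperone Nolc1 did not pass in any comparison. Ncl had 12.61 and 12.63 log2 in LIF/PD arrays, 12.76 and 12.61 in GCSF arrays and 12.62 and 12.64 in controls. The high value is 1 of the GCSF arrays, and the groups overlapped. Npm1 likewise overlapped, and Nolc1 lay within 0.052 log2 over all 6 arrays.

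Of the 8 genes that act on the small subunit, 0 passed with limma in any comparison, and 1 feature had an unadjusted p under 0.05, in LIF/PD against GCSF. That was Bysl, needed for late steps of the small subunit, with 9.78 and 9.76 log2 in LIF/PD arrays, 9.62 and 9.63 in GCSF arrays and 9.72 and 9.66 in controls. The LIF/PD arrays were highest and the GCSF arrays lowest, with no overlap between the groups, and LIF/PD exceeded GCSF by 0.14 ± 0.04 (adjusted p = 0.205). The early processome genes Utp20, Nop14, Noc4l, Wdr43 and Rrp9 and the late maturation and export genes Ltv1 and Rrp12 differed from control by -0.06 to 0.05 in GCSF arrays and by -0.03 to 0.06 in LIF/PD arrays. Wdr43, with an E-box just after its start, spanned 0.031 log2 over the 6 arrays, the smallest span of all 39 features.

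The large subunit group held 14 features of 11 genes, and Rrs1 was the 1 that passed. Rrs1 encodes a factor that in yeast helps to load the smallest ribosomal RNA with its proteins onto the large subunit. It had 8.50 and 8.48 log2 in LIF/PD arrays, 8.66 and 8.52 in GCSF arrays, and 8.13 and 8.27 in controls. All 4 treated arrays exceeded both controls. Rrs1 rose 1.31-fold in the GCSF arrays (0.39 ± 0.07 log2, adjusted p = 0.0449) and was 0.29 ± 0.07 above control in the LIF/PD arrays without passing (adjusted p = 0.486). The GCSF call ended whichever array was left out, with differences from 0.32 to 0.46. The adjusted p was 0.289 and 0.0784 without control replicate 1 or 2, 0.217 and 0.0544 without GCSF replicate 1 or 2, and 0.102 and 0.103 without LIF/PD replicate 1 or 2. It also ended under 7 other settings. Between LIF/PD and GCSF arrays Rrs1 differed by -0.10 ± 0.07 (adjusted p = 0.662).

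The other large subunit genes did not pass. Pes1, Bop1 and Wdr12 form a complex that is needed for processing of the large subunit RNA. Bop1 had 10.48 and 10.53 log2 in LIF/PD arrays, 10.42 and 10.50 in GCSF arrays and 10.55 and 10.52 in controls. Pes1 differed from control by -0.01 ± 0.04 in LIF/PD arrays and -0.02 ± 0.04 in GCSF arrays, and the features of Wdr12 by 0.06 and -0.02 in LIF/PD arrays and 0.11 and 0.01 in GCSF arrays. The ribosomal RNA methyltransferase gene Nop2, which has an E-box before its start, lay at 0.01 ± 0.04 in LIF/PD arrays and -0.00 ± 0.04 in GCSF arrays. Nucleostemin (Gnl3) was at 0.01 ± 0.04 in LIF/PD arrays and 0.08 ± 0.04 in GCSF arrays (adjusted p = 0.455), and Nip7, which in yeast is needed for efficient large subunit assembly, at 0.12 ± 0.07 and 0.11 ± 0.07. The helicase gene Ddx18 had 1 feature at 0.11 ± 0.04 in LIF/PD arrays (adjusted p = 0.736) and the other at -0.03 ± 0.03. The features of Mrto4, which in yeast prepares the site of the stalk, and of the assembly factor genes Nop16 and Wdr74 differed from control by -0.08 to 0.10 over both treatments. The value of 0.10 ± 0.09 belonged to the feature of Mrto4 that spread most over the 6 arrays, by 0.308. The nucleolar helicase gene Ddx21, which acts on both transcription and processing of ribosomal RNA, differed by 0.00 ± 0.04 and 0.02 ± 0.04.

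**Figure D3:**
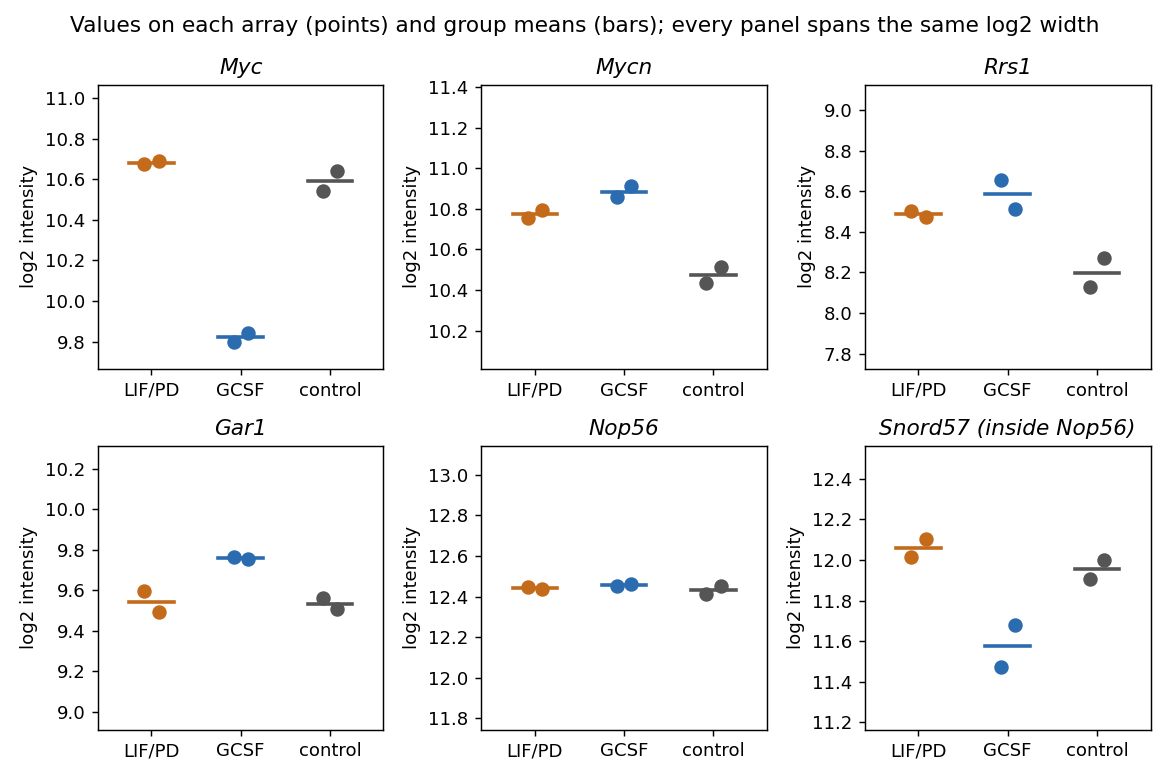
Log2 intensity on each array (points) with group means (bars) for Myc, Mycn, Rrs1, Gar1, Nop56 and the snoRNA Snord57, for LIF/PD, GCSF and control arrays; each panel covers the same log2 width. Myc and Snord57 are lowest in the GCSF arrays, while Mycn and Rrs1 are higher in all 4 treated arrays and Nop56 stays within 0.048.

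Some of these genes carry snoRNAs in their introns. By RefSeq positions, 10 snoRNAs lie inside the 36 genes, and 4 of them had a feature of their own. Snord57, a box C/D snoRNA inside Nop56, had 12.02 and 12.10 log2 in LIF/PD arrays, 11.47 and 11.68 in GCSF arrays and 11.91 and 12.00 in controls. The GCSF arrays were lowest without overlap. Snord57 fell by 0.38 ± 0.07 in GCSF arrays against control (adjusted p = 0.041) and was 0.48 ± 0.07 higher in LIF/PD than in GCSF arrays (adjusted p = 0.017), while Nop56 itself was at 0.02 ± 0.03 and -0.01 ± 0.03. Against control the call ended under 11 of 18 other settings, where adjusted p reached 0.245, among them the removal of either control array (0.148 and 0.229), of GCSF replicate 1 (0.111), or of either LIF/PD array (0.0859 and 0.0856). Between LIF/PD and GCSF arrays it ended under 4 of 18 settings (adjusted p up to 0.378), among them the removal of LIF/PD replicate 1 (0.0997) or 2 (0.156). Snora75 and Snord82 inside Ncl and Snord53 inside Wdr43 differed by 0.12, -0.13 and -0.12 in GCSF arrays and did not pass. Of 47 features of snoRNAs elsewhere 0 passed in any comparison with limma. In GCSF arrays 8 of the 47 had an unadjusted p under 0.05, 5 higher and 3 lower, against 7.04% and 5.07% of all features.

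A wider list of ribosome biogenesis genes was set beside those described. Of its 114 genes 111 were matched, and 115 of their 117 features were tested. With limma 0 passed in any comparison. At an unadjusted p under 0.05 in GCSF arrays, 7 of the 115 were higher and 3 lower, against 7.04% and 5.07% of all features. Their median was 0.02 in LIF/PD and 0.02 in GCSF arrays. The smallest p in the GCSF arrays belonged to Noc3l (0.12 ± 0.04), Esf1 (0.11 ± 0.04), Rrp1b (0.10 ± 0.04) and Tsr1 (0.09 ± 0.03). In the LIF/PD arrays it was Lyar that lay first, at 0.18 ± 0.04 (adjusted p = 0.443). Among 33 features of 26 further genes of RNA polymerase I and III, 0 passed with limma in any comparison. Of the 33, 4 were higher and 3 lower at an unadjusted p under 0.05 in GCSF arrays, against 7.04% and 5.07% of all features. The features of Polr1d, a subunit shared by both polymerases, lay at -0.15 ± 0.05 and -0.21 ± 0.06 there (adjusted p = 0.289 and 0.189). The polymerase III subunit gene Polr3f and 1 feature of Polr3e lay above control, at 0.13 ± 0.05 and 0.16 ± 0.06 (adjusted p = 0.305 and 0.323). The other feature of Polr3e lay at 0.06. Between LIF/PD and GCSF arrays 3 of the 33 were higher and 7 lower (21.2%) at an unadjusted p under 0.05. Of all features 6.96% and 4.83% were so. The 7 lower remained 7 under both other scalings. They included 1 feature of Polr3e (-0.27 ± 0.06, adjusted p = 0.111) and features of Taf1d (-0.18 ± 0.05 and -0.26 ± 0.07), a gene with several features in this list. Those of Polr1d were among the higher (0.20 ± 0.05 and 0.20 ± 0.06).

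Other known MYC targets, of nucleotide, polyamine, translation and mitochondrial functions among others, were set beside them as well. Of 48 features of 39 genes 1 rose in GCSF arrays, that of the transferrin receptor gene Tfrc (0.24 ± 0.03, adjusted p = 0.0142), and 0 fell. At an unadjusted p under 0.05 there were 5 higher and 0 lower, against 7.04% and 5.07% of all features. The 5 included both features of the chaperone gene Hspd1 (0.14 ± 0.03 and 0.15 ± 0.04) and Prps1 (0.18 ± 0.05). In LIF/PD arrays 0 passed, with 2 higher at an unadjusted p under 0.05, against 4.7% of all features. Between LIF/PD and GCSF arrays 0 passed, with 1 higher and 4 lower at that p, against 6.96% and 4.83% of all features. The lower ones included Tfrc (-0.19 ± 0.03, limma adjusted p = 0.0516) and both features of Hspd1 (-0.16 ± 0.04 and -0.125 ± 0.03). After quantile normalization and with each array centred on its median, 1 feature was called lower.

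The cytosolic ribosomal proteins are the main products that ribosome assembly uses. Of 181 tested features of 55 genes 2 fell in GCSF arrays, 1 of 5 of Rpl10 (-0.26 ± 0.04, adjusted p = 0.00914) and 1 of 4 of Rpl38 (-0.96 ± 0.17, adjusted p = 0.0394), and 0 rose. The other features of Rpl10 lay between -0.33 and -0.04 and those of Rpl38 between -0.16 and -0.07, and the Rpl38 call ended after quantile normalization (adjusted p = 0.0504). Rpl38 was also at -1.02 ± 0.17 on that feature in LIF/PD arrays (adjusted p = 0.163). At an unadjusted p under 0.05, 38 were lower (21% of the list, against 5.07% of all features) and 4 higher. In GCSF arrays 136 of 181 (75.1%) lay below control, against 46.3% of all features, and the median was -0.05. After quantile normalization 132 (72.9%) lay below control, against 53.3% of all features, and with each array centred on its median 144 (79.6%) against 57%. In LIF/PD arrays 0 passed with limma, and 14 were lower (7.73%, against 1.89% of all features) and 8 higher at an unadjusted p under 0.05. There 107 (59.1%) lay below control against 42.1% of all features, and after quantile normalization 105 (58%) against 46.1%. With centring 129 (71.3%) lay below, against 58.2%. Of these 129, 25 had an unadjusted p under 0.05 (13.8% of the list, against 3.52% of all features). For LIF/PD against GCSF arrays 0 passed with limma, and 125 were higher and 56 lower (30.9% lower, against 48.1% of all features). The share lower was 32% after quantile normalization (against 42.7%) and 32.6% with centring (against 50.2%). As deposited, 27 of 181 were higher and 3 lower at an unadjusted p under 0.05, against 6.96% and 4.83% of all features. The features are no independent samples, since 38 of the 55 genes have several and many share sequence with copies elsewhere in the genome. The median over the block of control features was 6.59 and 6.68 log2 in the LIF/PD arrays, 6.84 and 6.71 in the GCSF arrays and 6.66 and 6.71 in the controls, and its part in these small differences was not tested.

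**Figure D4:**
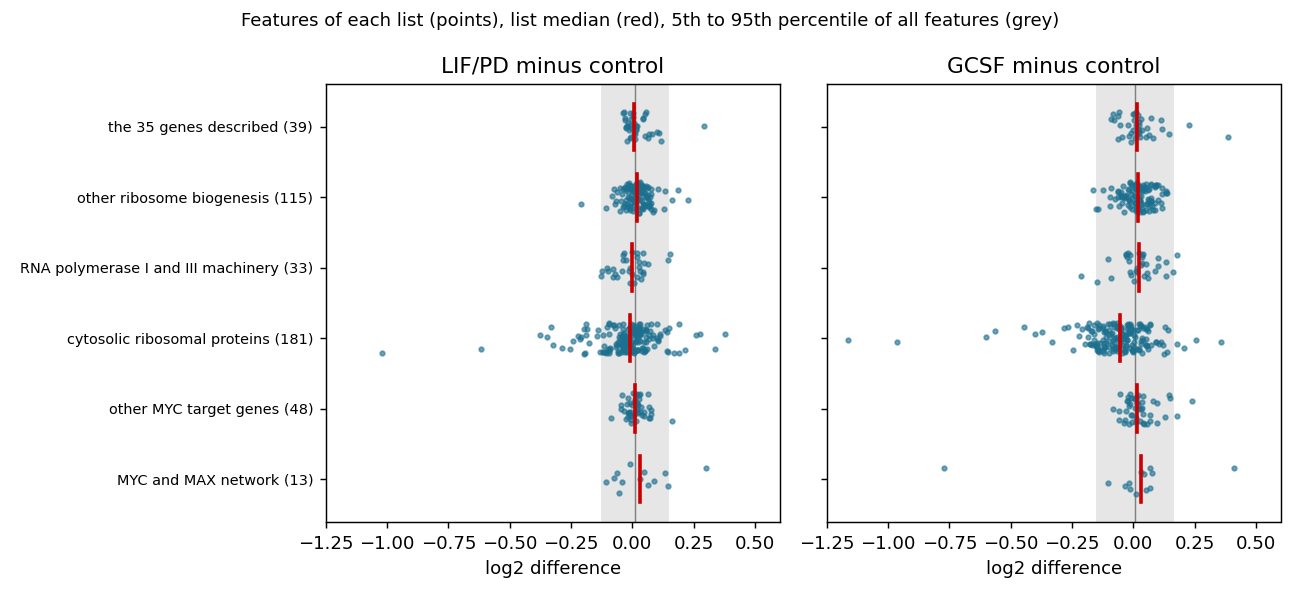
Log2 difference from control for each feature (points) of 6 gene lists, with the list median in red and the 5th to 95th percentile of all 16912 features in grey, for LIF/PD arrays (left) and GCSF arrays (right). The median of the 39 ribosome biogenesis features is 0.01 for LIF/PD and 0.02 for GCSF arrays, and that of the ribosomal protein features is -0.01 for LIF/PD and -0.05 for GCSF arrays.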

How the data were processed

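Total RNA of 6 samples was labelled with biotin, 1 array each, per the labels. The authors deposited values read here as log2 intensities from their range of 2.29 to 14.50; the log base, summarization and normalization are not given in the sources used here, and no further normalization was applied. Arrays have no read depth, and 2 arrays per group limit the precision. Of 34760 features 21640 carried 1 symbol in the platform annotation and 1321 several, from which no gene was named; 21553 of those with 1 symbol matched RefSeq by gene ID. The 6573 features before the first annotated identifier were left out as a control block, and of the 28187 others those whose mean reached the 40th percentile (6.70), 16912 in number, entered the tests. With limma 3.58.1 in R 4.3.3 the 6 arrays were fitted together by group, with an intensity trend. The residual degrees of freedom were 3, and 8.4 after moderation. P-values are two-sided, adjusted by Benjamini-Hochberg over all tested features, and called under 0.05; errors are standard errors of that fit. A gene with several features enters medians through the one with the highest mean. Genes named were all members, the MYC and MAX network, label check genes, called genes of the other lists or up to 4 with the smallest p, and snoRNAs inside members. Markers below the filter, Thy1 and Eomes were named beside this rule, after their values were seen. The members and lists were chosen with earlier results of these data known. The fit was tested on simulated data. Alternatives covered the replicate block, the arrays in the fit, filters, scaling, variance models, array weights, merging of features and each array left out.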

Additional observations from a re-analysis of the deposited data

How the results depend on the processing

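The fall of Myc in GCSF arrays passed under all 18 alternatives (-0.82 to -0.72), as did its higher level in LIF/PD than GCSF arrays (0.84 to 0.88) and the rise of Mycn in GCSF arrays (0.37 to 0.45). For GCSF against control the count of 1 ribosome biogenesis feature became 0 with the replicate block, with only the arrays of the compared groups, with no filter, after quantile normalization, without an intensity trend, with array weights, with the control block median as a covariate, and with any array left out (0 to 0). It became 2 (Rrs1 and Gar1) with 1 feature per gene or features averaged, where fewer tests are made. Under the same settings the count for LIF/PD against GCSF went from 0 to 1 (Gar1). The count for LIF/PD against control stayed at 0. Rrs1 kept its sign for GCSF under all alternatives, with adjusted p from 0.00914 to 0.289, and Snord57 did likewise, with 0.00394 to 0.245. The genes' median for GCSF (0.0122) moved to -0.0091 with centring, 0.0019 with the covariate and 0.0199 with averaging, and ranged from -0.0006 to 0.0178 with an array left out. For LIF/PD (0.0053) it moved to -0.0011 after quantile normalization and -0.0199 with centring, with -0.0022 to 0.0081 over left-out arrays. For LIF/PD against GCSF (-0.0100) it moved to 0.0067 with the covariate, with -0.0100 to -0.0019 over left-out arrays. The causes were not tested.

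The features called overall for GCSF against control, 198, became 125 without an intensity trend, 99 with the covariate, and 88 to 164 with an array left out. The 11 for LIF/PD became 1 without the trend, 27 and 24 with features reduced or averaged, and 1 to 7 with an array left out. The 143 between LIF/PD and GCSF became 82 with only those arrays, 71 without the trend, 26 with the covariate and 30 to 91 with an array left out. Same-numbered arrays deviated together with a correlation of 0.007 to 0.099, so the numbers were not taken to pair them; with the replicate block 195, 9 and 165 features were called, in that order of comparisons, and the call of Rrs1 ended (adjusted p = 0.0651) while Myc, Mycn and Snord57 passed. With 2 arrays per group the median standard error over the 39 ribosome biogenesis features was 0.04 log2. The 95% intervals of most of them stayed within 0.2 log2 of 0, and shifts smaller than the reach of a feature's interval were not resolved. The same alternatives for Gar1, Mycn and Snord57, and for Rrs1 in LIF/PD arrays, were added after their values were seen.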
